A study of Homo sapiens with 6 samples.

Results

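The genes described here are 32 genes of cholesterol synthesis and of fatty acid synthesis, out of 17297 gene symbols counted by RNA-seq in LNCaP, a widely used cell line from human prostate cancer. The rule that lists them names the pathways and uses no measured value, and all 32 had reads in every library. Of the 32, 7 encode enzymes of the mevalonate pathway up to squalene, 10 encode enzymes from squalene to cholesterol, 5 encode regulators of the pathway or a sterol carrier, 5 make fatty acids or supply their carbon and reducing power, and 5 elongate or desaturate them. A second list of 34 sterol and lipid genes outside this group is given beside them.

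LNCaP cells had been transduced with the pBabe retroviral vector, either empty (pBabe-vector) or holding wild-type GNA13 cDNA (pBabe-GNA13). GNA13 encodes Gα13, the α subunit of a heterotrimeric G protein that relays signals from cell surface receptors. Both lines were grown in RPMI with fetal bovine serum and antibiotics, the transduced cells were kept in puromycin, and 3 cultures of each line were collected after 48 h. Each condition is 1 stable line, so the effect of GNA13 and other differences between the lines cannot be told apart. The libraries are called by the tags of their headings as std, replicate 2 and replicate 3 in each line, and pBabe-vector std is replicate 1 of that line. The libraries held between 33002160 and 40628970 counts. GNA13 itself stood at 820, 886 and 747 CPM in pBabe-GNA13 (std, replicate 2 and replicate 3) and at 76.7, 69.4 and 65.4 CPM in pBabe-vector, where CPM is the read count scaled to library size after TMM normalization. These values do not overlap and put GNA13 3.54 ± 0.12 (SE) higher on the log2 scale (edgeR quasi-likelihood test, adjusted p = 9.12e-05). All 8 markers of luminal prostate cells used here, among them KLK3 and KRT8, were above 1 CPM in every library, and their summed level was 5861 to 8666 CPM in pBabe-GNA13 and 4978 to 7690 CPM in pBabe-vector. The 3 basal markers summed to 4.49 to 8.26 CPM in pBabe-GNA13 and 2.38 to 2.48 CPM in pBabe-vector, with TP63 under 1 CPM in every library. The 4 fibroblast markers summed to 17.3 to 24.8 CPM and 11.6 to 23.5 CPM, with DCN and LUM under 1 CPM, and the endothelial marker VWF stood at 14.6 to 30.5 CPM and 6.54 to 20.6 CPM. Leukocyte markers and PECAM1 were not analysed here, and the part of these genes in the results was not tested.

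Cholesterol is built from acetyl-CoA through mevalonate, isoprenoid units, squalene and lanosterol, and fatty acids are built from the same acetyl-CoA through malonyl-CoA. Transcription of many of these enzymes is driven by the sterol regulatory element binding proteins SREBP-1 and SREBP-2, which are held in the endoplasmic reticulum by SCAP and the INSIG proteins while sterols are plentiful and are released and cleaved when sterols run low. In prostate cancer cells lipogenic enzymes such as fatty acid synthase are known to be highly expressed.

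The promoters of these genes were searched for short sequence motifs, without a test. The reference table held windows from 250 bases before to 50 bases after a RefSeq gene start (GRCh38.p14) for 29 of the 32 genes. It held none for FASN, SQLE and FDFT1. Some genes had windows at more than 1 start, and a motif in any of them was counted, as for all genes. HMGCS1, IDI1, FADS2, DHCR7, ACACA and ACSS2 held CCAAT in only some of their windows. On both strands, CCAAT, the letters bound by NF-Y, lay in the windows of 22 of the 29 genes (75.9%), against 42.9% of 10894 genes with a window. GGGCGG, the GC box bound by Sp1, lay in 27 of the 29 (93.1%), against 76.1% of all. TCACNCCAC, a form of the sterol regulatory element, lay in 1 of the 29 (3.45%), which was SREBF2, against 1.51% of all. The motifs were counted separately, overlaps were allowed, and the counts are a description of letters. These 6 stretches lie before the RefSeq start and outside annotated exons, read 5′ to 3′ on the gene's strand. They are shown because these genes carry the patterns in expression described next: MSMO1 and LSS with low p-values for the difference between the lines, INSIG1 and SCD with their maxima in replicate 2, EBP with its maximum in replicate 3, and MVK, which stood higher in pBabe-GNA13. Not all genes with these patterns hold CCAAT. FADS1 and ME1, also with low p-values for the difference between the lines, held 0 in their windows and are not shown. The same holds for SCAP, which stood higher in pBabe-GNA13. Capitals mark CCAAT or its reverse complement ATTGG.
MSMO1 (chr4:165327419-165327666, plus strand): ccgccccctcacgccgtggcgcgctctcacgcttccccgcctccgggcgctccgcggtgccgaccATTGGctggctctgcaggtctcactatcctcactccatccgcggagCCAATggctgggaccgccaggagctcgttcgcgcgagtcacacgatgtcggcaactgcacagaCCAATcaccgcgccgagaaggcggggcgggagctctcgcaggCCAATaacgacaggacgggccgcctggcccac
LSS (chr21:46228825-46229024, minus strand): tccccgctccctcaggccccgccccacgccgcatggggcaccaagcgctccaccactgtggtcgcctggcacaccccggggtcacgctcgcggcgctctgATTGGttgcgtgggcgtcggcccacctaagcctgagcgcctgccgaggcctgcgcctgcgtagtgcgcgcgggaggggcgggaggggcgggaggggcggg
INSIG1 (chr7:155297628-155297775, plus strand): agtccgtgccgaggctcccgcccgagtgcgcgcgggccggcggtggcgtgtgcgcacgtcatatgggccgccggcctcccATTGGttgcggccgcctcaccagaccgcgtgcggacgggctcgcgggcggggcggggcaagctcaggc
SCD (chr10:100346983-100347232, plus strand): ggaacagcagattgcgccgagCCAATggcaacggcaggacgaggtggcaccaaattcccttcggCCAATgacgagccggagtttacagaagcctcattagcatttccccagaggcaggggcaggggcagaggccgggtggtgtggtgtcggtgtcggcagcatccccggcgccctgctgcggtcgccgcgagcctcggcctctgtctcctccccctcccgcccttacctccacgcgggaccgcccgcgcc
EBP (chrX:48521558-48521798, plus strand): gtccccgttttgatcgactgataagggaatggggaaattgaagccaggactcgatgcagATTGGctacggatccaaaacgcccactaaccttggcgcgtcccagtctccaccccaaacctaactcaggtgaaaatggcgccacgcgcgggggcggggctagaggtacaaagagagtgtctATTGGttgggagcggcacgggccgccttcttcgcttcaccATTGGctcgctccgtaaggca
MVK (chr12:109573581-109573792, plus strand): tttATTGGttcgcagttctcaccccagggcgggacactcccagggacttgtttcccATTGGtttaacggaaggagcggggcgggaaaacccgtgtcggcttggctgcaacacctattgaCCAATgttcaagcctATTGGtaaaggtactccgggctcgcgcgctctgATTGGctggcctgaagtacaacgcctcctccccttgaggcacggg
MVK held 5 such sites in its stretch, MSMO1 held 4, EBP held 3, SCD held 2, and LSS and INSIG1 held 1 each. The match in the SREBF2 window, with the motif in capitals and 5 bases on each side, is on the plus strand of GRCh38.p14. It lies before the SREBF2 start, inside an exon that Gencode 44 annotates for SREBF2-AS1 on the opposite strand.
SREBF2 (chr22:41832967-41832985, plus strand): cgccaTCACCCCACgcacc

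Levels were compared between genes per kilobase of exon (RPKM from the CPM values and Gencode 44 exon lengths). The length of a gene is that of the merged exons of all its annotated transcripts, so the order depends on the annotation. SCD, the stearoyl-CoA desaturase, had the highest mean level in pBabe-vector, 376 ± 180 RPKM (SD, n = 3), followed by FASN, fatty acid synthase, at 316 ± 63.5 RPKM. The SD of SCD was larger than its distance from FASN, and in pBabe-GNA13 the order of the means was the other way round, 294 ± 84.2 RPKM for SCD and 299 ± 35.1 RPKM for FASN. ELOVL5, FADS2 and ACLY came next in pBabe-vector with 154 ± 1.91, 130 ± 35.6 and 120 ± 10.9 RPKM. The lowest means were those of STARD4 (3.14 ± 1.68 RPKM), MVK (3.21 ± 0.194 RPKM) and HSD17B7 (4.31 ± 0.887 RPKM). The 5 highest means thus belonged to fatty acid enzymes, although ACSS2 and ELOVL6, with 14.6 ± 1.85 and 8.13 ± 1.33 RPKM, lay in the lower part of the order. The highest sterol enzymes per exon length were PMVK, at 79.2 ± 11.8 RPKM, and TM7SF2, at 62.3 ± 18.5 RPKM. The lengths used were 1002 bases for PMVK and 5080 bases for FDFT1. By mean CPM in pBabe-vector, FDFT1 (247), TM7SF2 (212) and DHCR7 (178) stood above PMVK (79.4). MVK (28.9) then stood above CYP51A1 (21.5).

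**Figure D1:**
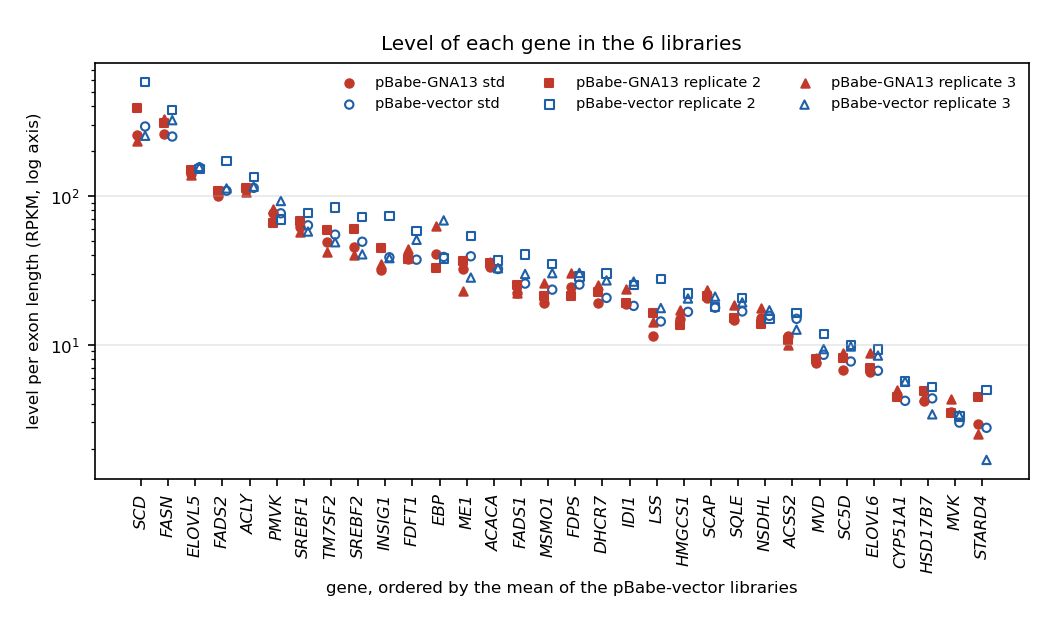
Level of each of the 32 genes per exon length (RPKM, log axis) in the 6 libraries, ordered by the mean of the pBabe-vector libraries. Filled red symbols are pBabe-GNA13 and open blue symbols are pBabe-vector. SCD and FASN lie at the top, and STARD4 and MVK at the bottom.

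The first question was whether the 32 genes differed between the lines. None of the 32 passed an adjusted p of 0.05 in edgeR's quasi-likelihood test with line as the only term, against 0.139% of all genes (24 of 17297). DESeq2, limma-trend and the newer quasi-likelihood method of edgeR also called 0 of the 32, against 1.68%, 0.0289% and 0.133% of all genes. At an unadjusted p under 0.05, 5 of the 32 were lower in pBabe-GNA13, namely HMGCS1, MVD, MSMO1, ACSS2 and FADS1, and 0 were higher, against 3.68% and 4.78% of all genes. The fitted log2 fold change was below 0 for 27 of the 32, against 53.6% of genes with a mean of at least 1 CPM. The median over the 32 was −0.17, with a range from −0.51 (LSS) to 0.23 (MVK), and the median over all genes of at least 1 CPM was −0.01. Without pBabe-vector replicate 2 the median over the 32 was −0.09.

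The 6 libraries formed 3 pairs, each with 1 library of each line. Libraries of a pair deviated together from the means of their lines over 12778 genes with a mean log2 CPM above 1. With the pair as a block, 17 of the 32 genes were lower in pBabe-GNA13 at an adjusted p under 0.05 and 2 were higher, MVK and SCAP (edgeR quasi-likelihood test). Over all genes the blocked fit called 10.4% lower and 9.32% higher. The 17 were HMGCS1, MVD, IDI1, FDFT1, SQLE, LSS, TM7SF2, MSMO1, SC5D, DHCR7, INSIG1, ACLY, ACSS2, ME1, SCD, FADS1 and FADS2. The tool changed this count. DESeq2 with the block called 11 of the 32 (10 lower, 1 higher, with 13.8% of all genes called), while limma-trend with the block called 0 (2.50% of all genes), its smallest adjusted p among the 32 being 0.062 for ACSS2. The calls of HMGCS1, MVK, IDI1, FDFT1, INSIG1, ACLY, SCD and FADS2 were thus lost with both tools, with DESeq2 adjusted p from 0.0735 (ACLY) to 0.523 (FADS2), among them 0.145 for HMGCS1, 0.125 for INSIG1 and 0.498 for SCD. The newer quasi-likelihood method with the block called 17 of the 32 (18.1% of all genes). Without the std pair the blocked edgeR fit called 21 of the 32 (18.9% of all genes). Without the pair of replicate 2, the blocked edgeR fit called 10 lower and 1 higher (7.44% and 7.30% of all genes), and the median over the 32 was −0.09. The 10 were HMGCS1, LSS, TM7SF2, MSMO1, INSIG1, ACSS2, ME1, SCD, FADS1 and ELOVL5, of which ELOVL5 was not called with all pairs. Their log2 fold changes were smaller in size than with all 3 pairs apart from that of ELOVL5, for example −0.32 for LSS, −0.27 for MSMO1, −0.21 for INSIG1 and −0.15 for SCD. MVD, IDI1, FDFT1, SQLE, SC5D, DHCR7, ACLY, FADS2 and SCAP were then not called.

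**Figure D2:**
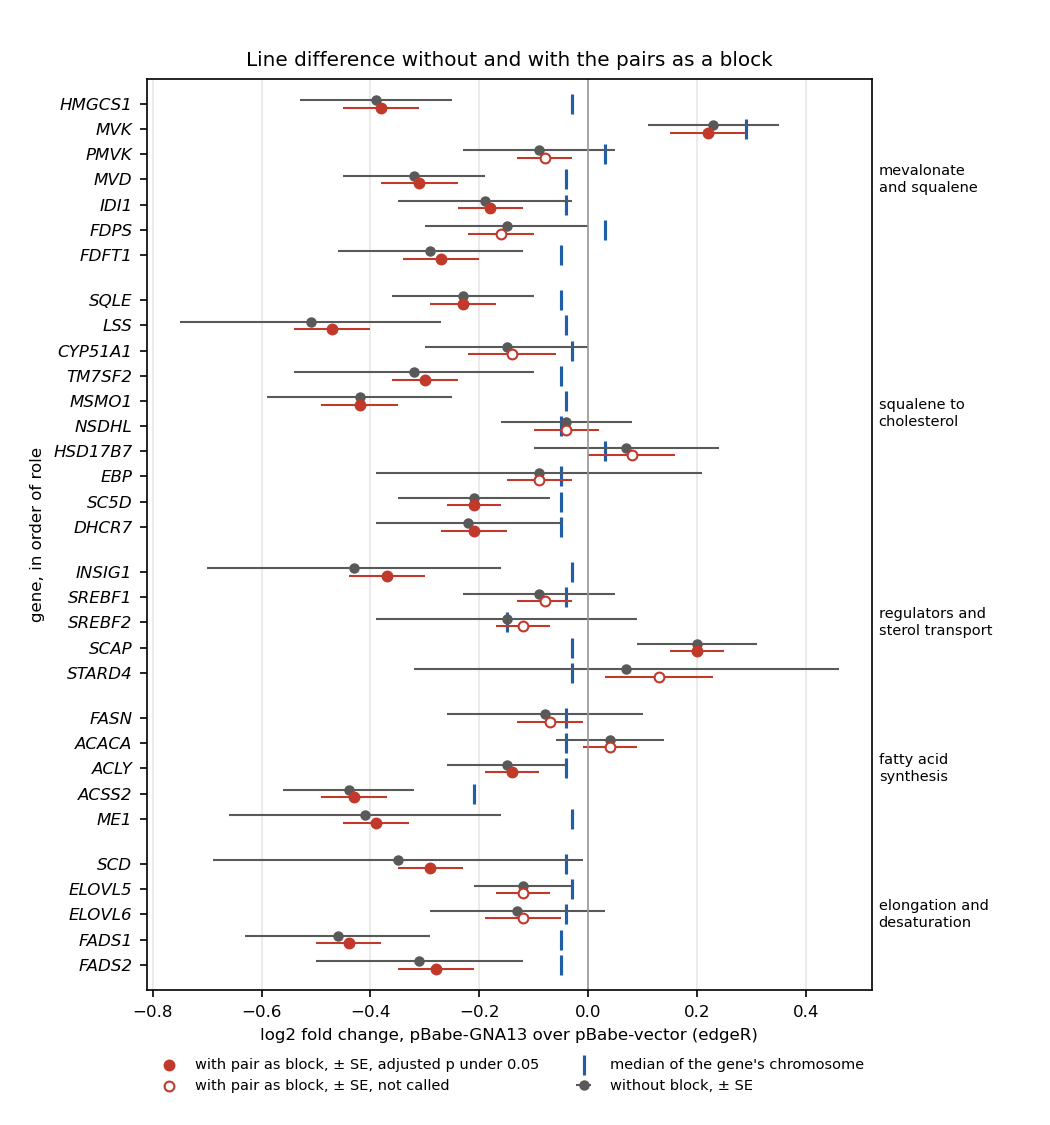
Log2 fold change of pBabe-GNA13 over pBabe-vector with its SE (edgeR) for each gene, without the block (grey) and with the pair as a block (red, filled where the adjusted p is under 0.05). The blue tick is the median of all genes on the same chromosome. Most points lie left of 0, and the SE shrinks with the block while the estimates stay close.

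The difference between the lines also varied by chromosome. In the blocked fit the median log2 fold change of the genes of chromosome 12, where MVK lies, was 0.29, that of chromosome 20, where ACSS2 lies, was −0.21, and that of chromosome 22, where SREBF2 lies, was −0.15. After each gene was set against the median of its chromosome, 15 of the 32 were lower and 1 was higher (SCAP), against 7.12% and 6.77% of all genes. FDPS was then among the lower genes, and IDI1, DHCR7, ACLY and MVK were no longer called.

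Within the mevalonate pathway, 4 of 7 genes were lower and 1 was higher in the blocked fit, and the median log2 fold change without the block was −0.19. HMGCS1, which makes HMG-CoA, stood at 97.8, 89.2 and 113 CPM in pBabe-GNA13 (std, replicate 2, replicate 3) and at 110, 146 and 135 CPM in pBabe-vector. The lines overlapped only in that pBabe-GNA13 replicate 3 was above pBabe-vector std. The log2 fold change was −0.39 ± 0.14 (SE) without the block (edgeR adjusted p = 0.474) and −0.38 ± 0.07 with it (adjusted p = 0.000184). In Gencode 44, 37.7% of the exon length of HMGCS1 lies under an unnamed gene on the opposite strand, and whether the counting used strand is not given in the sources used here. MVK, mevalonate kinase, stood at 31.6, 31.1 and 38.9 CPM in pBabe-GNA13 and at 26.9, 29.6 and 30.2 CPM in pBabe-vector. It was the only one of the 32 with every pBabe-GNA13 library above every pBabe-vector library, a pattern held by 7.21% of genes of at least 1 CPM. Its log2 fold change was 0.23 ± 0.12 without the block (edgeR adjusted p = 0.724) and 0.22 ± 0.07 with it (adjusted p = 0.0189), and it was −0.07 relative to chromosome 12 (adjusted p = 0.569). MVD, which makes isopentenyl diphosphate, had every pBabe-GNA13 library (35.2 to 38.5 CPM) below every pBabe-vector library (40.3 to 55.6 CPM). IDI1, its isomerase, and FDFT1, squalene synthase, were lower with the block by 0.18 and 0.27 in log2 units (edgeR, adjusted p = 0.0499 and 0.00666), IDI1 thus at the very edge of the threshold. PMVK and FDPS did not pass, with log2 fold changes of −0.08 and −0.16 (adjusted p = 0.303 and 0.0726). FDPS has several named pseudogenes and shares 18.6% of its exon length with RUSC1-AS1, so its reads may be split.

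Between squalene and cholesterol, 6 of 10 genes were lower and 0 higher in the blocked fit. SQLE, squalene epoxidase, stood at 63.1, 65.0 and 79.2 CPM in pBabe-GNA13 and at 72.1, 88.3 and 82.5 CPM in pBabe-vector. The lines overlapped, with the highest pBabe-GNA13 library above the lowest pBabe-vector library, and the log2 fold change was −0.23 ± 0.13 without the block (edgeR adjusted p = 0.732) and −0.23 ± 0.06 with it (adjusted p = 0.00626). LSS, lanosterol synthase, which closes the sterol rings, stood at 82.9, 117 and 102 CPM in pBabe-GNA13 and at 103, 199 and 127 CPM in pBabe-vector. The value of pBabe-vector replicate 2 lay far above the other 5, and each pBabe-GNA13 library was below its pair. LSS had the most negative log2 fold change of the 32, −0.51 ± 0.24 without the block (edgeR adjusted p = 0.665) and −0.47 ± 0.07 with it (adjusted p = 7.28e-06). Without pBabe-vector replicate 2 it was −0.19. MSMO1, a C4-methylsterol oxidase, stood at 54.0, 60.1 and 73.7 CPM in pBabe-GNA13 and at 66.7, 98.8 and 86.1 CPM in pBabe-vector. Each pBabe-GNA13 library was again below its pair, and the log2 fold change was −0.42 ± 0.17 without the block (edgeR adjusted p = 0.563) and −0.42 ± 0.07 with it (adjusted p = 3.7e-05). EBP, the sterol isomerase, showed another pattern, with 71.6, 57.8 and 112 CPM in pBabe-GNA13 and 68.6, 66.9 and 121 CPM in pBabe-vector. It was high in replicate 3 of both lines and differed little between them, with a log2 fold change of −0.09 ± 0.30 without the block (edgeR adjusted p = 1.00) and −0.09 ± 0.06 with the block (adjusted p = 0.320). TM7SF2, SC5D and DHCR7, which carry out reduction or desaturation steps of the sterol, were lower with the block by 0.30, 0.21 and 0.21 in log2 units (edgeR, adjusted p = 0.000421, 0.00584 and 0.0107). CYP51A1, NSDHL and HSD17B7 did not pass, with log2 fold changes of −0.14, −0.04 and 0.08. Other genes cover 74.1% of the exon length of CYP51A1 and 36.4% of that of EBP, and their values are uncertain to that extent.

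Among the regulators, INSIG1 was lower and SCAP higher in the blocked fit, and the other 3 did not pass. INSIG1, the sterol-sensing anchor of SCAP, stood at 115, 164 and 127 CPM in pBabe-GNA13 and at 141, 266 and 139 CPM in pBabe-vector. Replicate 2 was highest in each line, and the log2 fold change was −0.43 ± 0.27 (edgeR adjusted p = 0.794), −0.37 ± 0.07 with the block (adjusted p = 0.000227), and −0.05 when pBabe-vector replicate 2 was left out of the fit without the block. SCAP, the escort of the SREBP proteins, stood at 129, 134 and 146 CPM in pBabe-GNA13 and at 111, 113 and 132 CPM in pBabe-vector. It was higher in pBabe-GNA13 in 3 of 3 pairs, with 0.20 ± 0.11 on the log2 scale (edgeR adjusted p = 0.725) and 0.20 ± 0.05 with the block (adjusted p = 0.00616). SREBF1, which encodes SREBP-1, stood at 508, 553 and 471 CPM in pBabe-GNA13 and at 521, 633 and 474 CPM in pBabe-vector. Its log2 fold change was −0.09 ± 0.14 (edgeR adjusted p = 0.969) and −0.08 ± 0.05 with the block (adjusted p = 0.309). SREBF2, which encodes SREBP-2, stood at 367, 484 and 324 CPM in pBabe-GNA13 and at 395, 579 and 325 CPM in pBabe-vector. Replicate 2 was highest in both lines, and the log2 fold change was −0.15 ± 0.24 (edgeR adjusted p = 0.974), −0.12 ± 0.05 with the block (adjusted p = 0.107) and 0.03 relative to chromosome 22. STARD4, a carrier of sterols between membranes, stood at 16.6, 25.4 and 14.1 CPM in pBabe-GNA13 and at 15.7, 28.3 and 9.57 CPM in pBabe-vector. Its spread over the 6 libraries was the widest of the 32, 2.95-fold from the lowest to the highest, and its log2 fold change was 0.07 ± 0.39 (edgeR adjusted p = 1.00).

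In fatty acid synthesis, 3 of 5 genes were lower and 0 higher in the blocked fit. FASN stood at 2423, 2873 and 3059 CPM in pBabe-GNA13 and at 2334, 3514 and 3000 CPM in pBabe-vector. The std library was lowest in each line and the lines overlapped, with a log2 fold change of −0.08 ± 0.18 without the block (edgeR adjusted p = 0.988) and −0.07 ± 0.06 with the block (adjusted p = 0.443). ACSS2, which makes acetyl-CoA from acetate, stood at 60.4, 56.8 and 52.2 CPM in pBabe-GNA13 and at 78.0, 85.3 and 66.0 CPM in pBabe-vector. Every pBabe-GNA13 library lay below every pBabe-vector library. The log2 fold change was −0.44 ± 0.12 (edgeR adjusted p = 0.339), −0.43 ± 0.06 with the block (adjusted p = 1.61e-06), and −0.22 relative to chromosome 20 (adjusted p = 0.006). ME1, the cytosolic malic enzyme that supplies NADPH, stood at 108, 121 and 76.3 CPM in pBabe-GNA13 and at 131, 180 and 94.1 CPM in pBabe-vector. The order of the replicates was the same in both lines, and the log2 fold change was −0.41 ± 0.25 (edgeR adjusted p = 0.785) and −0.39 ± 0.06 with the block (adjusted p = 1.5e-05). Without pBabe-vector replicate 2 the first of these was −0.15. ACLY, which makes cytosolic acetyl-CoA from citrate, lay at 551 to 581 CPM in pBabe-GNA13 and at 589 to 691 CPM in pBabe-vector, without overlap, and passed narrowly with the block (log2 fold change −0.14, edgeR adjusted p = 0.0492). ACACA, the carboxylase that makes malonyl-CoA, did not pass, with a log2 fold change of 0.04 in both fits.

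Of the elongases and desaturases, 3 of 5 were lower and 0 higher in the blocked fit. Their median log2 fold change without the block was −0.31, and it was −0.06 without pBabe-vector replicate 2. SCD stood at 1347, 2049 and 1233 CPM in pBabe-GNA13 and at 1532, 3051 and 1327 CPM in pBabe-vector. The lines overlapped widely, since replicate 2 was highest in both, and the log2 fold change was −0.35 ± 0.34 (edgeR adjusted p = 0.910) and −0.29 ± 0.06 with the block (adjusted p = 0.00116). It was 0.11 when pBabe-vector replicate 2 was left out of the fit without the block. FADS1, the delta-5 desaturase of polyunsaturated fatty acids, stood at 226, 258 and 229 CPM in pBabe-GNA13 and at 263, 413 and 304 CPM in pBabe-vector. Every pBabe-GNA13 library lay below every pBabe-vector library, with a log2 fold change of −0.46 ± 0.17 without the block (edgeR adjusted p = 0.488) and −0.44 ± 0.06 with the block (adjusted p = 7.97e-06). Leaving out pBabe-vector replicate 2 gave −0.26 for FADS1 and −0.06 for FADS2 in the fit without the block, where FADS2 stood at −0.31 with all libraries. FADS2, the delta-6 desaturase beside it on chromosome 11, was lower with the block by 0.28 in log2 units (edgeR, adjusted p = 0.00774), and 5.57% of the exon length of FADS1 overlaps other genes, FADS2 among them. ELOVL5 and ELOVL6, which lengthen fatty acids, did not pass, with log2 fold changes of −0.12 each in the blocked fit. ELOVL5 had its 3 pBabe-GNA13 libraries (528 to 565 CPM) below its 3 pBabe-vector libraries (580 to 594 CPM).

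In all, 5 of the 32 genes had every pBabe-GNA13 library below every pBabe-vector library (MVD, ACLY, ACSS2, ELOVL5 and FADS1) and 1 had them above (MVK), against 7.49% and 7.21% of genes of at least 1 CPM. Not all of these 6 genes stayed without overlap when upper quartile factors replaced TMM. With 3 libraries on each side, an exact permutation test of a single gene (two-sided) has a smallest p of 0.10. Every gene without overlap reaches it, so for these 6 genes the test adds nothing to the lack of overlap. Within the pairs, 18 of the 32 were lower in pBabe-GNA13 in 3 of 3 pairs, against 29.0% of genes, and 2 were higher in 3 of 3, against 24.1%. The 2 higher genes were MVK and SCAP.

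**Figure D3:**
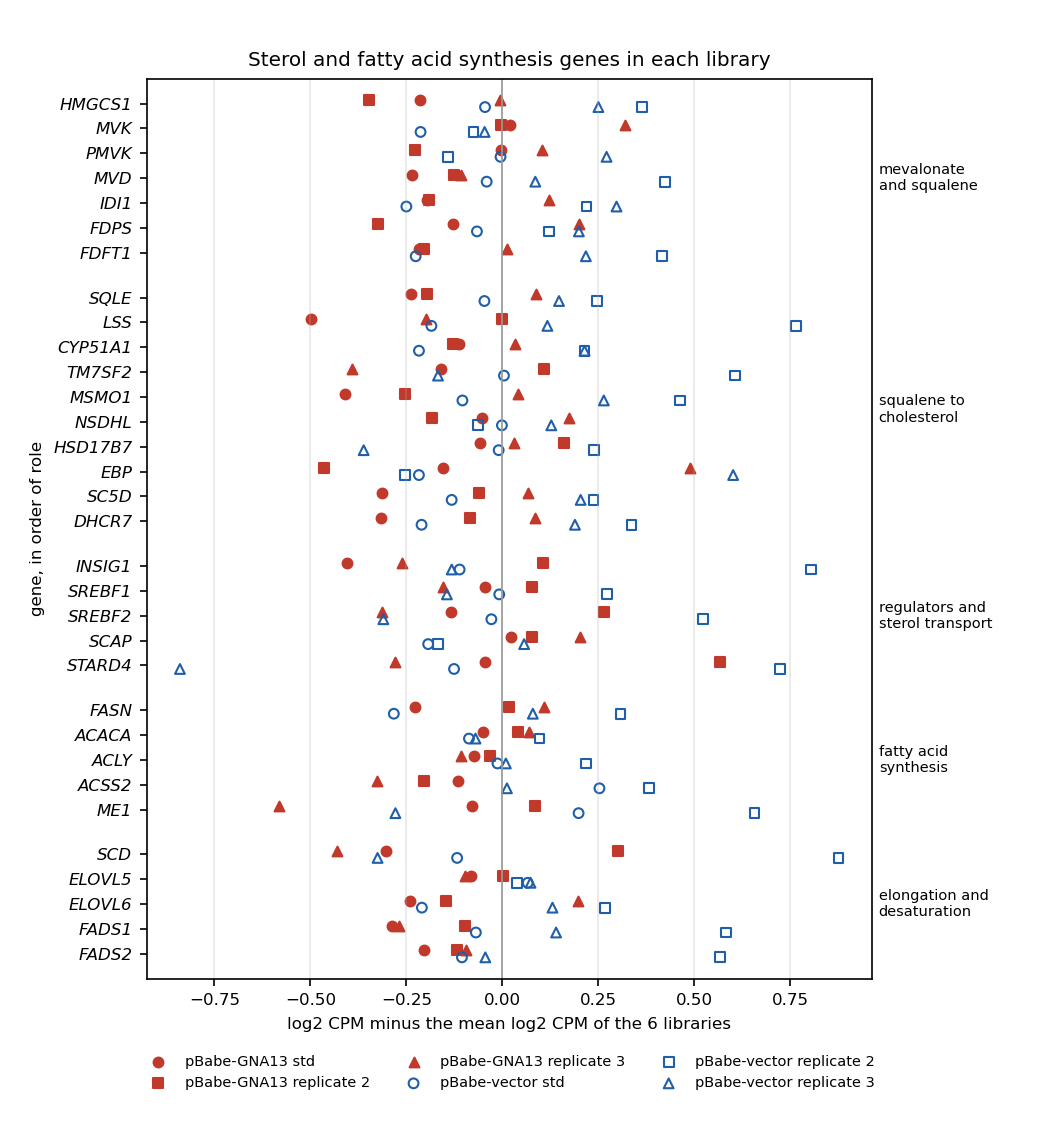
Log2 CPM of each gene minus its mean over the 6 libraries, by role. Filled red symbols are pBabe-GNA13, open blue symbols are pBabe-vector, and circle, square and triangle are std, replicate 2 and replicate 3. The open blue squares of pBabe-vector replicate 2 are the rightmost symbol for 23 of the 32 genes.

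The size of the difference was not the same in the 3 pairs. The median of pBabe-GNA13 minus pBabe-vector over the 32 genes was −0.08 in the std pair, −0.41 in the pair of replicate 2 and −0.11 in the pair of replicate 3, on the log2 CPM scale, while the medians over all genes of at least 1 CPM lay between −0.02 and −0.01. In these pairs 22, 30 and 23 of the 32 were lower in pBabe-GNA13. The pair of replicate 2 held the most negative of the 3 differences for 29 of the 32, against 38.3% of genes, and the exceptions were PMVK, SCAP and ELOVL5. LSS differed by −0.32, −0.76 and −0.31 in the std, replicate 2 and replicate 3 pairs, and FADS2 by −0.10, −0.69 and −0.05. The blocked edgeR SE was 0.07 for both genes, which does not show how far these differences lie apart. pBabe-vector replicate 2 was the highest of all 6 libraries for 23 of the 32, against 16.4% of genes. That library had 35152588 counts, within the range of the others, and the lowest TMM factor, 0.963. Whether the difference between the lines itself differed between pairs was not tested, since a pair holds 1 library of each line.

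**Figure D4:**
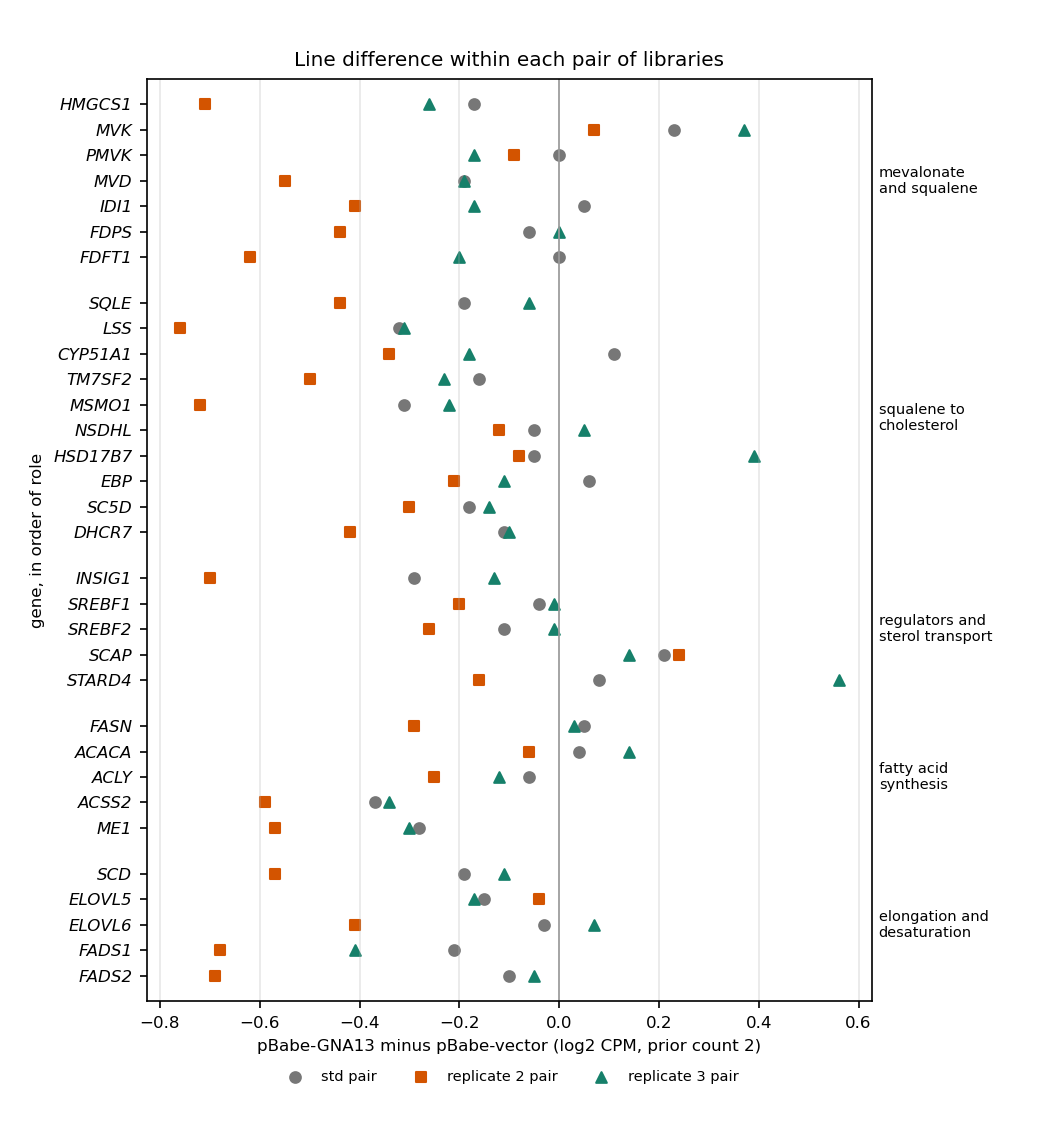
Difference between the lines within each pair (pBabe-GNA13 minus pBabe-vector, log2 CPM with a prior count of 2) for each gene. Grey circles are the std pair, orange squares replicate 2 and green triangles replicate 3. The orange squares lie furthest left for 29 of the 32 genes.

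The pairs themselves differed more often than the lines. In the fit with pair and line, 28 of the 32 genes differed between pairs at an adjusted p under 0.05 (edgeR quasi-likelihood F test), against 47.4% of all genes, and the 4 that did not pass were CYP51A1, ACACA, ACLY and ELOVL5. DESeq2 called 19 of the 32 (38.8% of all genes), the newer quasi-likelihood method 26 (45.3%) and limma-trend 9 (25.7%). This is a comparison between cultures grown and sequenced as separate replicates, and the labels give no treatment that separates them. A call does not mean that both lines shared the pattern. The order of the 3 replicates was the same in both lines for 13 of the 32, against 51.1% of genes of at least 1 CPM. HMGCS1 passed narrowly (edgeR F test, adjusted p = 0.0481), although its replicate 2 was lowest in pBabe-GNA13 and highest in pBabe-vector. Replicate 2 was highest in both lines for 11 of the 32, against 22.3% of genes: LSS, TM7SF2, HSD17B7, INSIG1, SREBF1, SREBF2, STARD4, ACLY, ME1, SCD and FADS1. Replicate 3 was highest in both lines for 8 of the 32, against 30.1% of genes: MVK, PMVK, IDI1, FDPS, CYP51A1, NSDHL, EBP and SCAP. The std library was highest in both lines for 0 of the 32, against 16.7% of genes. The replicate 3 count and the limma-trend count each lay near the share of all genes, and no difference is read from them.

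The pair differences were larger than those between the lines for several genes. SCD was 0.81 higher on the log2 scale in the pair of replicate 2 than in the std pair and 0.17 lower in the pair of replicate 3 (edgeR adjusted p = 3.31e-11). STARD4 was 0.74 higher and 0.45 lower (adjusted p = 1.57e-08), SREBF2 was 0.47 higher and 0.23 lower (adjusted p = 2.88e-09), and ME1 was 0.32 higher and 0.49 lower (adjusted p = 2.35e-09) in the same edgeR fit. These 4 shared the order replicate 2, std, replicate 3 in each line. INSIG1 was 0.72 higher in replicate 2 and 0.07 higher in replicate 3 (edgeR adjusted p = 4.21e-08). EBP went the other way, 0.17 lower in the pair of replicate 2 and 0.73 higher in that of replicate 3 than in the std pair (edgeR adjusted p = 2.25e-11). LSS and MSMO1, both enzymes that act after squalene, were above std in both other pairs, LSS by 0.73 and 0.30 (edgeR adjusted p = 9.91e-08) and MSMO1 by 0.37 and 0.41 (adjusted p = 0.000202). These pair values are fitted over both lines together, and the lines could differ in size. For INSIG1, replicate 2 and std stood at 164 and 115 CPM in pBabe-GNA13 and at 266 and 141 CPM in pBabe-vector. For MSMO1 they stood at 60.1 and 54.0 CPM in pBabe-GNA13 and at 98.8 and 66.7 CPM in pBabe-vector.

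**Figure D5:**
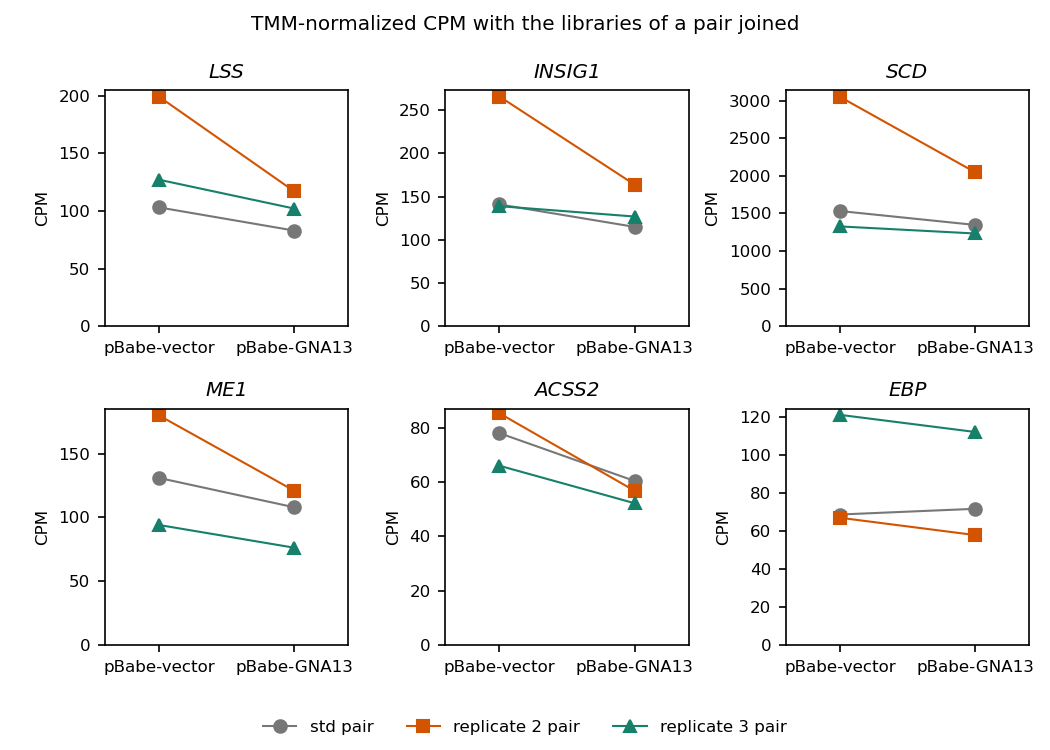
TMM-normalized CPM of 6 genes in the 2 lines, with the libraries of a pair joined. LSS, INSIG1, SCD and ME1 fall from pBabe-vector to pBabe-GNA13 in each pair with the steepest line in replicate 2, ACSS2 falls in each pair, and EBP separates by replicate 3 rather than by line.

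Of the 34 other sterol and lipid genes, all were in the table, 0 were called without the block, and 9 were lower and 3 higher with it (edgeR adjusted p under 0.05, against the 10.4% and 9.32% of all genes given above). Their median log2 fold change without the block was −0.07. ELOVL7, an elongase, stood at 98.4, 82.1 and 67.9 CPM in pBabe-GNA13 and at 171, 162 and 103 CPM in pBabe-vector, without overlap, with −0.79 ± 0.06 on the log2 scale with the block (edgeR adjusted p = 1.48e-10). LBR, which holds a sterol reductase domain, was at −0.44, INSIG2, the relative of INSIG1, at −0.47 and NPC1, the lysosomal cholesterol transporter, at −0.33 on the log2 scale (edgeR adjusted p = 1.82e-06, 1.62e-05 and 0.000109 with the block). ACACB, the mitochondrial acetyl-CoA carboxylase, LPCAT3, which remodels phospholipids, and NR1H2, the sterol receptor LXRβ, were higher with the block, by 0.44, 0.36 and 0.16 in log2 units (edgeR adjusted p = 0.000171, 0.000116 and 0.0355). ACACB and LPCAT3 lie on chromosome 12, as MVK does, and like MVK they were not called relative to that chromosome (adjusted p = 0.263 and 0.573).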

How the data were processed

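Total RNA of 3 cultures of each line was sequenced as paired-end reads. The authors assessed reads with FastQC 0.11.7, aligned them with STAR to Gencode 38 and summarised them with featureCounts. The values they deposited are raw read counts, whole numbers for 17297 symbols, and 0 columns were left out. The version of STAR and the use of strand are not given in the sources used here.

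Counts of all genes were normalized by TMM, without a filter, and tested by the quasi-likelihood test of edgeR 4.0.16 (legacy method, R 4.3.3) with line as the only term. P-values were adjusted over all genes after Benjamini and Hochberg, with 0.05 as the threshold of a call. The same test was made with pair and line as terms. Alternatives used limma 3.58.1 and DESeq2 1.42.0, RLE and upper quartile factors, a filter, centring on chromosome medians and fits without a library or pair. Log2 CPM has a prior count of 2, and errors are SD over 3 libraries or SE of the fit. The labels call the cultures biological replicates, and p-values are set against the spread between these cultures of 1 line each. edgeR estimates that spread for a gene partly from other genes. The SE and p with the block can thus be smaller than the gene's own 3 pair differences would give. With 1 stable line per condition the p-values do not measure the spread between lines. The scripts were tested on simulated data. Python 3.11.15, pandas 2.3.3, NumPy 2.4.6 and matplotlib 3.10.9 were used for tables and plots.

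Pairs come from the number or tag in the column headings. The heading of the pBabe-GNA13 std library repeats the number 2, so it was assigned to its line without a number and paired with pBabe-vector std by the tag. Deviations from the line means correlated within pairs over 12778 genes with a mean log2 CPM above 1. Here r was 0.659 (std), 0.807 (replicate 2) and 0.888 (replicate 3), and −0.736 to 0.125 between libraries of different pairs. Centring each line on the mean of its 3 libraries pushes r between pairs down where r within pairs is above 0. The contrast is thus partly built in. Symbols were matched to Gencode 44 for 14397 of 17297 genes, which gave exon lengths and chromosomes (chromosomes with at least 100 genes were centred). Promoter sequences are RefSeq (GRCh38.p14).

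A count of 3 equals 0.0738 to 0.0909 CPM at these depths. Such limits cover counting error only, because PCR copies were not marked by molecular identifiers.

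The genes, roles and lists were chosen with earlier results of these data known. Values in every library are given for up to 6 genes per direction with the smallest p of the blocked fit, up to 6 with the smallest p of the pair difference, and SREBF1, SREBF2, SCAP, INSIG1, HMGCS1, SQLE, FASN and SCD. At most 4 genes per direction of the second list are named, by smallest p. Other genes with values were added to account for all 32. Beside the luminal markers used, 1 further marker was left out and is not reported here.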

Additional observations from a re-analysis of the deposited data

How the results depend on the processing

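The fit without the block called 24 genes in all and 0 of the 32. RLE factors, upper quartile factors, the filter and the newer quasi-likelihood method (added after seeing the data) kept 22 to 24 and 0 of the 32. DESeq2 called 271 in all and limma-trend 5. With the replicate block the calls rose to 3407 in all and 19 of the 32, to 2402 and 16 with chromosome centring, to 3129 and 17 with the newer method, to 2000 and 11 with DESeq2, and to 433 in all and 0 of the 32 with limma-trend. The last 3 were added after seeing the data. These counts depend on the block and on the tool, and the cause was not tested.

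Leaving out 1 library or 1 pair gave 2 to 3266 calls in all and 0 to 21 of the 32, where fits without the block gave at most 15 in all and 0 of the 32. The median over the 32 stayed between −0.29 and −0.09, with −0.09 reached without pBabe-vector replicate 2. The pair difference was called for 8193 genes and 28 of the 32, and for 4443 and 9 with limma-trend. Upper quartile factors left 4 of 6 genes without overlap.

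Relative to their chromosomes MVK stood at −0.07 and SREBF2 at 0.03, the other direction from the fit without the block. Over the fits without 1 library or pair the log2 fold change ran from −0.40 to 0.25 for EBP, −0.23 to 0.56 for STARD4, −0.18 to 0.04 for SREBF1, −0.33 to 0.12 for SREBF2, −0.23 to 0.06 for FASN and −0.61 to 0.11 for SCD. Of the 32, LSS, TM7SF2, MSMO1, ACSS2, ME1 and FADS1 were called in 7 of 8 blocked fits, limma-trend being the exception. The lowest level of the 32 was 9.57 CPM (STARD4 in pBabe-vector replicate 3), far above the limit that a count of 0 allows, and MVK was not called in the blocked fit without the pair of replicate 3.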
